A study of Homo sapiens with 8 samples.

Results

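Chromosome 8 held 1301 of the 10211 regions enriched in DNA double-strand breaks (BLISS+ regions) that were listed over 4 libraries of U2OS cells, a human osteosarcoma line, with activated Myc. The members were all regions with chromosome 8 in the first column of the lists. The chromosome was chosen by its share of the listed regions, already known from these same libraries, so its number of regions and its share are given as a description, with no test. Breaks had been mapped by sBLISS, in which break ends are blunted in fixed cells, ligated to an adapter with a molecular identifier and sequenced. The cells expressed MycER, in which Myc is joined to the ligand-binding part of the estrogen receptor and which moves into the nucleus upon addition of 4-hydroxytamoxifen (OHT). All 4 libraries came from cells in which MycER was active (300 nM OHT, 40 h) and an shRNA was induced with doxycycline (1 µg/mL). In the shNT OHT group (n = 2) the shRNA was non-targeting, and in the shCDK12 OHT group (n = 2) it was directed against CDK12. Both groups were blocked in mitosis with nocodazole (100 ng/mL, 8 h), collected by shake-off and kept for 18 h after release, before fixation in 2% paraformaldehyde. Nothing in the labels says whether replicates were separate cultures, and p-values then measure only the spread between these libraries. Libraries made without OHT are not part of the analysis, and a background level in cells with inactive MycER is therefore missing for every value.

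Myc is a transcription factor whose excess activity brings cells into S phase early and sets transcription against replication, a known source of replicative stress and of breaks. CDK12 is a cyclin-dependent kinase that phosphorylates RNA polymerase II during elongation and sustains the transcription of long genes, many of them of the DNA damage response. The long arm of chromosome 8 ends in band 8q24, which carries the endogenous MYC gene and is known for recurrent gains in tumours. The lists hold coordinates only, on hg19 and counted here from 1, without any count or signal, and sequencing depth is unknown. With a fixed threshold on breaks per 2 kb bin, as the study describes, the number of listed regions depends on library yield, and a place without a region can still hold breaks. No hg19 annotation or sequence was used, so that regions are given by position and MYC, at 128.75 Mb, is the only gene named.

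On chromosome 8, shNT OHT replicate 1 had 333 regions and replicate 2 had 209, while shCDK12 OHT replicate 1 had 422 and replicate 2 had 337. Each shCDK12 OHT list was longer than each shNT OHT list, by 4 regions for the closest pair. The means were 271 ± 87.7 (SD, n = 2) and 379.5 ± 60.1 (SD, n = 2), a log2 ratio of 0.49. This ratio hung on single libraries: it was 0.86 without shNT OHT replicate 1 and 0.19 without shNT OHT replicate 2. Chromosome 8 made up 27.9 and 26.5% of the 1192 and 788 regions in shNT OHT, the highest share of all 13 listed chromosomes in both libraries. In shCDK12 OHT it made up 9.21 and 9.23% of 4581 and 3650 regions, and ranked 3 of 22 and 1 of 23 listed chromosomes. The covered length was 904 and 508 kb in shNT OHT, against 1334 and 966 kb in shCDK12 OHT.

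Along the chromosome, the regions were concentrated in a pair of segments, where the groups held alike numbers, whereas the rest of the chromosome held more regions in shCDK12 OHT. Of the shNT OHT regions, 79.0 and 79.4% lay either between 25 and 30 Mb on the short arm or in 8q24, from 117.7 Mb to the end of the long arm. In shCDK12 OHT the share was 58.5 and 54.3%. Inside both segments the numbers were 263 and 166 in shNT OHT, against 247 and 183 in shCDK12 OHT, with means of 214.5 ± 68.6 and 215 ± 45.3 (SD, n = 2). Outside them they were 70 and 43 in shNT OHT, against 175 and 154 in shCDK12 OHT, means of 56.5 ± 19.1 and 164.5 ± 14.8 (SD, n = 2) and a log2 ratio of 1.54. The ranges of the groups overlapped inside the segments and did not overlap outside them. Nor did they overlap on all other chromosomes, with 859 and 579 regions in shNT OHT against 4159 and 3313 in shCDK12 OHT. That is a larger relative rise of the mean than outside the segments. Both segments were chosen with earlier results of these data known, and no test was made of them.

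**Figure D1:**
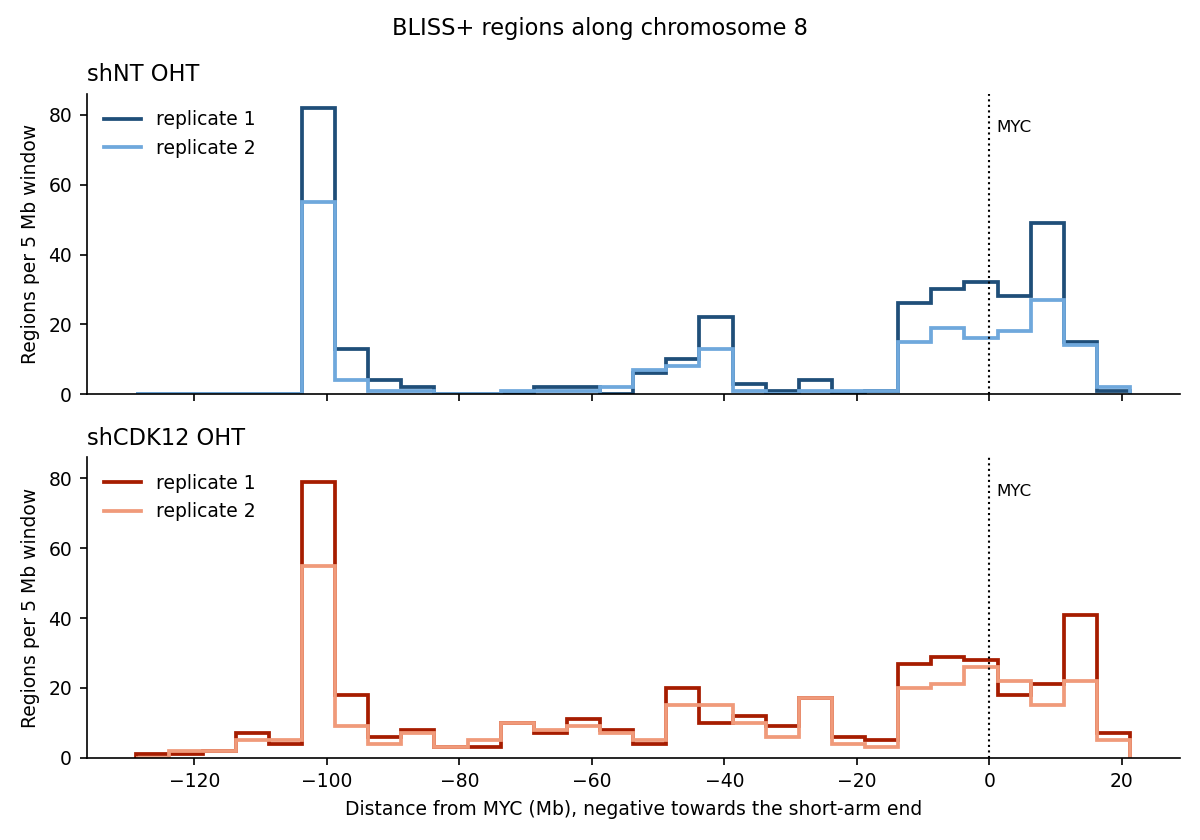
Number of BLISS+ regions in fixed 5 Mb windows of chromosome 8 (vertical axis) against the distance from MYC in Mb (horizontal axis), with shNT OHT above and shCDK12 OHT below and a line per replicate. A peak of 55 to 82 regions about 100 Mb from MYC and a raised stretch around MYC are present in all 4 libraries, whereas most of the windows between them hold fewer regions in shNT OHT than in shCDK12 OHT.

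The densest stretch of the chromosome was the 25 to 30 Mb segment. It held 82 and 55 regions in the shNT OHT libraries, against 79 and 55 in shCDK12 OHT, which is 16.4, 11.0, 15.8 and 11.0 regions per Mb. By count, libraries of the same replicate number were thus closer to each other than the replicates of a group were, and replicate 1 had the longer list in both groups. As shares of the chromosome 8 list the replicates of a group were the closer ones, with 24.6 and 26.3% in shNT OHT against 18.7 and 16.3% in shCDK12 OHT. Among the 552 windows of 5 Mb that held a region anywhere in the genome, this window had the highest mean count in both groups, with 68.5 regions per shNT OHT library and 67.0 per shCDK12 OHT library. Its regions covered 5.92 and 3.08% of the window in shNT OHT, against 6.32 and 3.68% in shCDK12 OHT, and the median distance to the nearest neighbour was 8 and 14 kb in shNT OHT, against 10 and 20 kb in shCDK12 OHT.

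With gaps of up to 1 Mb closed, the end of this dense stretch was the same in the replicates of a group. When regions less than 1 Mb apart were joined, the resulting block ran from 26150001 to 30342000 in both shNT OHT libraries, with 94 and 59 regions. In shCDK12 OHT it ended at 30894000 in both libraries and began at 24768001 in replicate 1 and 25312001 in replicate 2, with 97 and 64 regions. These wider borders rest on isolated regions. A merged region that ended at 30342000 was present in all 4 libraries, and only the shCDK12 OHT regions at 30668001 and 30888001 followed it in the block. Likewise, the regions at 24768001 and 25312001 preceded one at 26150001 that all 4 libraries listed. Beyond the end of the block no region was listed for 3.26 and 8.51 Mb in shNT OHT, against 1.51 and 7.23 Mb in shCDK12 OHT. Within the block the counts were highest between 28 and 30 Mb in all libraries. They were 9, 9, 7 and 8 (shNT OHT replicates 1 and 2, shCDK12 OHT replicates 1 and 2) at 26 to 27 Mb, and 24, 21, 26 and 22 at 28 to 29 Mb. At 29 to 30 Mb they were 36, 19, 33 and 17, and at 30 to 31 Mb 12, 4, 17 and 9. The windows at 28 to 29 and 29 to 30 Mb had the highest means of all 1 Mb windows of the chromosome in each group, 22.5 and 27.5 in shNT OHT, against 24 and 25 in shCDK12 OHT.

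The short arm outside this block behaved otherwise. Between the short-arm end of the chromosome and 25 Mb no region was listed in either shNT OHT library, which allows shares of up to 0.901 and 1.44% of their chromosome 8 regions at a floor of 3 counts (upper 95% Wilson limits 1.14 and 1.805%), whereas shCDK12 OHT held 15 and 14. Between 30 and 45 Mb there were 19 and 6 regions in shNT OHT, against 32 and 20 in shCDK12 OHT, and 12 and 4 of the shNT OHT ones lay at 30 to 31 Mb, where the block ended. As a whole, the short arm carried 101 and 61 regions in shNT OHT, against 126 and 89 in shCDK12 OHT.

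The split between the arms was alike in all libraries. The long arm held 69.7% (95% Wilson interval 64.5 to 74.4) and 70.8% (64.3 to 76.6) of the regions in shNT OHT, against 70.1% (65.6 to 74.3) and 73.6% (68.6 to 78.0) in shCDK12 OHT. The intervals of all 4 libraries overlapped, and the difference of 1.62 percentage points between the group means had an exact permutation p-value of 0.667 (two-sided, 6 relabellings of 4 libraries, of which the smallest possible value is 0.333). It turned to -0.0994 percentage points without shCDK12 OHT replicate 2.

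On the long arm before 8q24, from 45 to 117.7 Mb, regions were few in shNT OHT and numerous in shCDK12 OHT. Counts were 51 and 37 in shNT OHT, against 128 and 120 in shCDK12 OHT, or 0.702, 0.509, 1.76 and 1.65 regions per Mb. The groups did not overlap, and the log2 ratio of the means (44 ± 9.90 and 124 ± 5.66, SD, n = 2) was 1.49. All other chromosomes rose more in relative terms, from 859 and 579 regions in shNT OHT to 4159 and 3313 in shCDK12 OHT. The shNT OHT regions of this part were themselves clustered, with 10 and 8 of them between 80 and 85 Mb and 22 and 13 between 85 and 90 Mb. Around the centromere no region was listed from 43.1 Mb on for 18.5 and 16.2 Mb in shNT OHT, but for 5.08 Mb in both shCDK12 OHT libraries, where the next region began at 48174001.

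**Figure D2:**
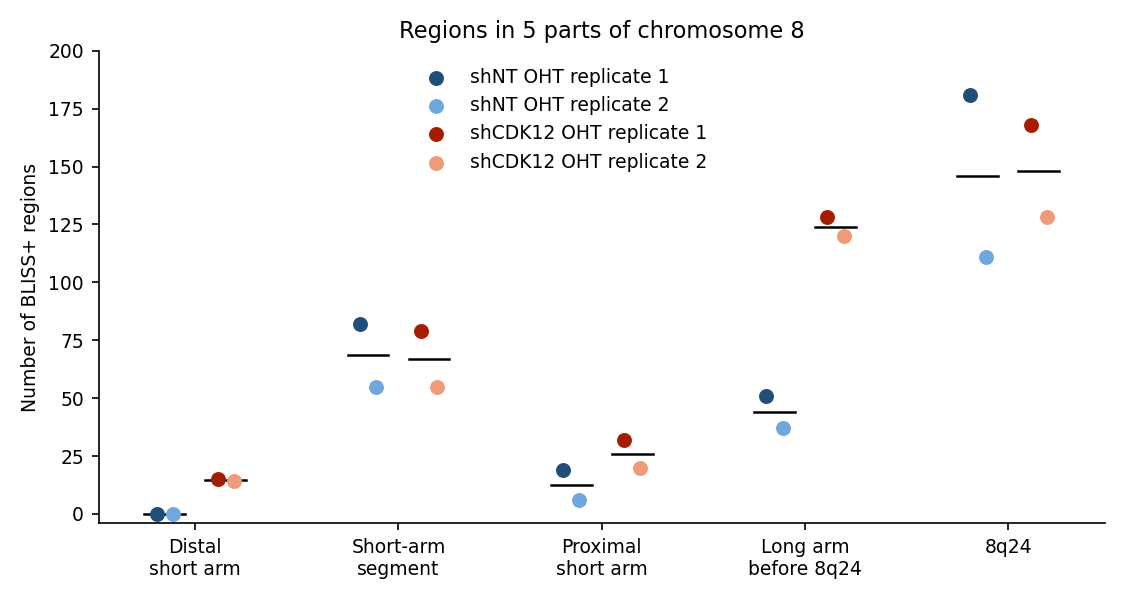
Number of BLISS+ regions (vertical axis) in 5 parts of chromosome 8, with a point per library and a bar at the mean of each group. The short-arm segment is the 25 to 30 Mb segment, and the distal and proximal short arm are the parts on either side of it. The groups overlap in the short-arm segment and in 8q24 and are separate in the other parts.

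Band 8q24 held more regions than any other of the 5 parts in every library, with 181 and 111 in shNT OHT, against 168 and 128 in shCDK12 OHT. As shares of chromosome 8 these were 54.4 and 53.1% in shNT OHT, against 39.8 and 37.98% in shCDK12 OHT. The shNT OHT mean was 146 ± 49.5 and the shCDK12 OHT mean 148 ± 28.3 (SD, n = 2), and the ranges overlapped. Counts rose at its border in all libraries, least steeply in shCDK12 OHT replicate 2. Windows from 112 to 117 Mb held at most 2 regions each, the window at 117 to 118 Mb held 2, 1, 3 and 5, and that at 118 to 119 Mb held 19, 10, 13 and 8. Counts then fell again, to 5, 3, 1 and 1 at 121 to 122 Mb.

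MYC itself lay in a stretch without any listed region. The centre of the nearest region was 411 and 391 kb away in shNT OHT, against 391 kb in each shCDK12 OHT library. It lay on the centromeric side in both shNT OHT libraries and on the telomeric side in shCDK12 OHT replicate 1, whereas in shCDK12 OHT replicate 2 the regions on either side were equally distant. A 2 kb region at 128358001 to 128360000 was nearest in shNT OHT replicate 2 and was 1 of these in shCDK12 OHT replicate 2. The stretch around MYC measured 1176 and 1380 kb in shNT OHT, against 1410 and 780 kb in shCDK12 OHT. This was the second longest stretch between neighbouring 8q24 regions in both shNT OHT libraries, the longest in shCDK12 OHT replicate 1 and the fifth longest in shCDK12 OHT replicate 2, whereas the median stretch in 8q24 was 76 to 152 kb. Within 1 Mb of MYC there were 11 and 4 regions in shNT OHT, against 5 and 7 in shCDK12 OHT.

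Inside 8q24 the total was alike, but the distribution over windows differed. The window at 135 to 140 Mb held 49 and 27 regions with shNT OHT against 21 and 15 in shCDK12 OHT. The window at 140 to 145 Mb held 15 and 14 against 41 and 22. In both windows the counts of the groups did not overlap, and they went in opposite directions. As shares of the chromosome 8 list the groups overlapped at 140 to 145 Mb, with 4.50 and 6.70% against 9.72 and 6.53%. At finer scale, 21 and 8 regions lay at 138 to 139 Mb in shNT OHT against 6 and 4 in shCDK12 OHT, and 12 and 11 at 137 to 138 Mb against 4 and 4. In turn 2 and 4 regions lay at 124 to 125 Mb in shNT OHT against 11 and 10 in shCDK12 OHT. The last 3 windows of 5 Mb before 135 Mb, from 120 Mb on, overlapped between groups, with 30 and 19, 32 and 16, and 28 and 18 regions in shNT OHT against 29 and 21, 28 and 26, and 18 and 22 in shCDK12 OHT.

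Counted over the chromosome, 19 of 30 windows of 5 Mb (63.3%) held more regions in each shCDK12 OHT library than in each shNT OHT library, against a background of 82.4% of windows over all chromosomes and 80.4% over the 8 chromosomes listed in all libraries. The opposite held for 2 windows, at 75 to 80 Mb (6 and 7 against 4 and 5 regions) and at 135 to 140 Mb, or 6.67% against backgrounds of 1.63 and 3.32%. With 1 Mb windows the numbers were 62 of 124 (backgrounds 61.7 and 57.5%) and 10 (8.06%, backgrounds 2.27 and 4.32%). The 10 windows included those at 26 to 27, 78 to 79 and 89 to 90 Mb, the last with 10 and 9 against 3 and 5 regions. The first background of each pair includes windows of chromosomes for which a shNT OHT list holds no region at all.

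Taken as shares of the chromosome 8 list, 18 of 30 windows were higher in shCDK12 OHT and 7 in shNT OHT (60.0 and 23.3%, against backgrounds of 50.6 and 19.2% over the 8 chromosomes listed in all libraries). Shares of a list have a fixed total, so that a rise in some windows lowers the share of windows with unchanged counts. The largest falls in share from shNT OHT to shCDK12 OHT without overlap were at 135 to 140 Mb (from a mean of 13.8 to 4.71%), at 25 to 30 Mb (25.5 to 17.5%) and at 130 to 135 Mb (8.51 to 5.40%). Only at 135 to 140 Mb did the counts also fall without overlap. They were 82 and 55 against 79 and 55 at 25 to 30 Mb, and 28 and 18 against 18 and 22 at 130 to 135 Mb. The largest rises without overlap were at 100 to 105 Mb (0.840 to 4.54%), at 55 to 60 Mb (0.239 to 2.67%) and at 90 to 95 Mb (0.690 to 2.91%). In numbers, the window at 100 to 105 Mb held 4 and 1 regions with shNT OHT, against 17 in each shCDK12 OHT library. That at 55 to 60 Mb held 0 and 1 against 10 and 10.

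The profiles of replicates resembled each other closely. Over the 30 windows of 5 Mb, Pearson's r was 0.986 (Spearman's rho 0.886) between the shNT OHT replicates and 0.961 (rho 0.949) between the shCDK12 OHT replicates. Between groups r was 0.871 to 0.916 and rho 0.802 to 0.823 over the 4 pairs. With 124 windows of 1 Mb r was 0.916 and 0.901 within groups and 0.757 to 0.803 between groups. These values describe windows, which share a chromosome and are not independent replicates.

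Agreement of replicates was lower when single regions were compared. A region was called touched when it shared at least 1 bp with the other list. Of the shNT OHT regions, 103 of 333 of replicate 1 (30.9%, 95% Wilson interval 26.2 to 36.1, background over all chromosomes 20.5%) and 105 of 209 of replicate 2 (50.2%, 43.5 to 57.0, background 32.4%) were touched by the other replicate. Of the shCDK12 OHT regions, 218 of 422 of replicate 1 (51.7%, 46.9 to 56.4, background 56.4%) and 224 of 337 of replicate 2 (66.5%, 61.3 to 71.3, background 71.4%) were touched. Chromosome 8 minus all other chromosomes came to 14.5 and 24.3 percentage points in shNT OHT and to -5.21 and -5.40 in shCDK12 OHT. These differences move with the share of the list by which the chromosome was chosen, which was higher in shNT OHT, and are given with no test. Several chromosomes are listed in only 1 shNT OHT replicate, which lowers the shares of the others. Over the other 7 chromosomes listed in all libraries the shNT OHT shares were 20.4 and 35.8% and the shCDK12 OHT shares 58.1 and 72.7%.

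Within chromosome 8 the order of the parts differed between groups. Among the 3 parts with the most regions, replicate agreement in shNT OHT was highest in the 25 to 30 Mb segment, where 43 of 82 regions of replicate 1 (52.4%) and 45 of 55 of replicate 2 (81.8%) were touched. It was 47 of 181 (26.0%) and 47 of 111 (42.3%) in 8q24, and 8 of 51 (15.7%) and 8 of 37 (21.6%) on the long arm before 8q24. In shCDK12 OHT the 25 to 30 Mb segment gave much the same shares, 39 of 79 (49.4%) and 43 of 55 (78.2%). Yet the long arm before 8q24 reached 84 of 128 (65.6%) and 85 of 120 (70.8%), above 8q24 with 69 of 168 (41.1%) and 70 of 128 (54.7%). On this stretch of the long arm the shares of the groups did not overlap. Their 95% Wilson intervals were 57.0 to 73.3 and 62.2 to 78.2% in shCDK12 OHT against 8.17 to 28.0 and 11.4 to 37.2% in shNT OHT. Nor did the shares overlap on the other 7 chromosomes listed in all libraries, with 58.1 and 72.7% against 20.4 and 35.8%. The difference between groups was not tested. The intervals cover counting error only and take regions as independent, and a longer list is touched more easily.

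**Figure D3:**
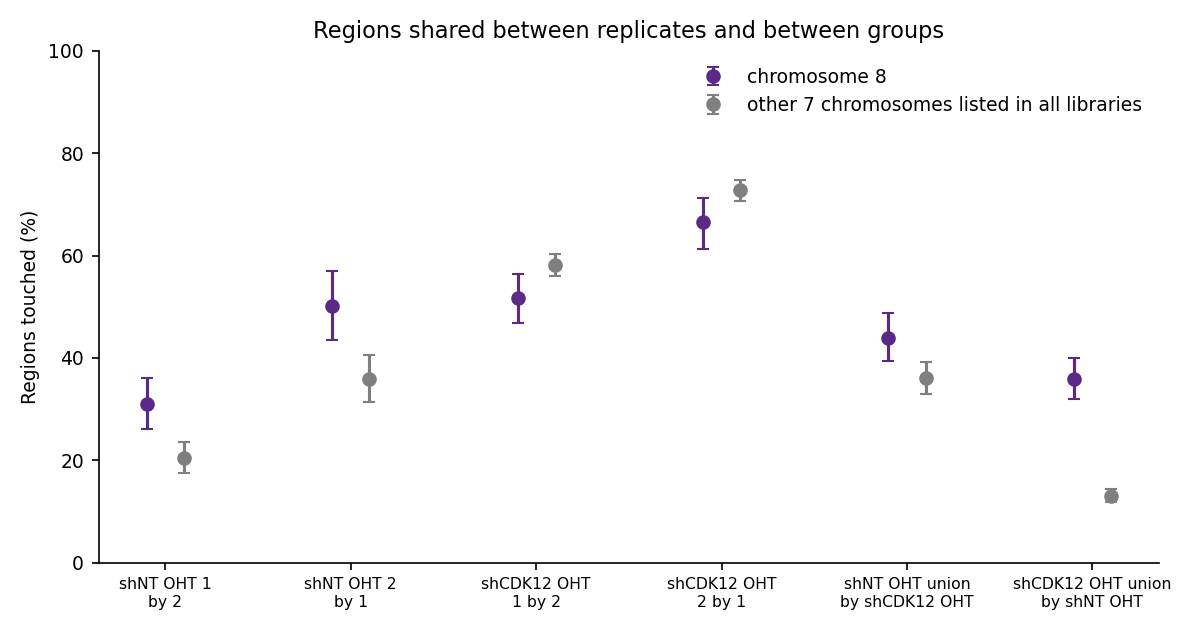
Percentage of the regions that met a region of the other replicate (first 4 positions) or of the union of the other group (last 2 positions), on chromosome 8 and on the other 7 chromosomes listed in all libraries. Points are shares and bars Wilson 95% intervals. The widest separation is in the last position, with 35.9% on chromosome 8 and 13.0% on the other chromosomes.

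To see which regions were kept, lost or gained between the groups, the union of both replicates was taken for each group. Of 423 shNT OHT regions, 186 (44.0%, 95% Wilson interval 39.3 to 48.7) met a shCDK12 OHT region and were thus kept, against 39.5% over all chromosomes. Single chromosomes ranged from 20.7% on chromosome 7 to 66.3% on chromosome 1, with 44.1% on chromosome 10 and 43.5% on chromosome 14, so that chromosome 8 did not stand apart in this direction. The other 237 were not listed again. The kept share was 57 of 89 regions (64.0%, 53.7 to 73.2) at 25 to 30 Mb and 95 of 236 (40.3%, 34.2 to 46.6) in 8q24. On the long arm before 8q24 it was 23 of 78 (29.5%, 20.5 to 40.4). The shCDK12 OHT union covered 7.08, 2.19 and 0.674% of these parts, so that a region is met most easily in the first. Between single libraries, 31.2 to 37.2% of shNT OHT replicate 1 and 44.0 to 47.4% of replicate 2 were touched by a shCDK12 OHT library. The other shNT OHT replicate touched 30.9% of replicate 1 and 50.2% of replicate 2, with no allowance for unequal list lengths. Regions were thus missed about as often between the shNT OHT replicates as between groups. After merging the lists of both groups, 196 of the 221 regions from shNT OHT only were in a single library. Whether loss followed the shRNA was not tested.

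Lost regions mostly had a shCDK12 OHT region nearby. Of the 237 lost regions, 175 (73.8%) lay within 100 kb of one, 55 of them within 10 kb, and the median distance was 38 kb. All 32 lost regions of the 25 to 30 Mb segment lay within 100 kb, with a median of 9 kb. In 8q24 this held for 107 of 141, with a median of 46 kb, and on the long arm before 8q24 for 32 of 55, with a median of 86 kb. These distances follow the density of the listed regions and do not show that the break positions moved.

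Of 524 shCDK12 OHT regions in the union, 188 (35.9%, 31.9 to 40.1) overlapped a shNT OHT region, against 11.9% over all chromosomes, and 336 were gained. On the other 7 chromosomes listed in all libraries the touched share was 13.0% (11.8 to 14.4), and the highest of these, on chromosome 7, was 16.7%. For single libraries, the share touched by the other group exceeded that of all other chromosomes by 3.63 and 15.2 percentage points in shNT OHT and by 26.6 and 27.5 in shCDK12 OHT. A list with many regions on a chromosome is met more often there, and these values come from overlaps of the same 4 lists, so no test was made. The share of 35.9% fell to 22.9% without shNT OHT replicate 1, to 20.7% with only regions of at least 4 kb and to 16.2% outside the 25 to 30 Mb segment and 8q24, the latter an alternative chosen after the data were seen.

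The share of gained regions differed between the parts. All 20 shCDK12 OHT regions before 25 Mb were gained, as were 138 of 162 (85.2%) on the long arm before 8q24, 125 of 220 (56.8%) in 8q24 and 30 of 88 (34.1%) at 25 to 30 Mb. The gained share was 90.6% over all other chromosomes and 87.0% over the other 7 listed in all libraries. The long arm before 8q24 was thus near the rest of the genome. The median distance of gained regions to the nearest shNT OHT region was 424 kb on the long arm before 8q24, 38 kb in 8q24 and 9 kb at 25 to 30 Mb. Over the chromosome, 75 of the 336 gained regions lay more than 1 Mb from any shNT OHT region, a number given without a value for other chromosomes.

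Merging all 4 lists gave 740 regions on chromosome 8. Of these, 221 (29.9%) came from shNT OHT only, 320 (43.2%) from shCDK12 OHT only and 199 (26.9%) from both groups, against 15.0, 74.3 and 10.7% of the merged regions over all chromosomes. On the other 7 chromosomes listed in all libraries, the share from both groups was 8.31 to 14.4% and the share from shNT OHT only 5.28 to 38.9%, the latter on chromosome 7 and above chromosome 8. Of the 221 from shNT OHT only, 25 were in both shNT OHT replicates (3.38% of the merged regions, background 0.984%), 17 of them in 8q24 and 5 at 25 to 30 Mb. On the other 7 chromosomes this share was 0 to 3.40%, the highest on chromosome 7 and also above chromosome 8. Of the 320 from shCDK12 OHT only, 128 were in both shCDK12 OHT replicates (17.3%, background 34.0%), 72 of them on the long arm before 8q24. There were 58 regions in all 4 libraries (7.84%, background 2.23%), of which 27 lay at 25 to 30 Mb, 23 in 8q24, 5 between 30 and 45 Mb and 3 on the long arm before 8q24. The mean width was 6.79 kb for regions of all 4 libraries and 2.18 kb for those of a single shNT OHT library. Since merging lengthens regions and long regions have more chance to meet another, part of this order follows from the definition.

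**Figure D4:**
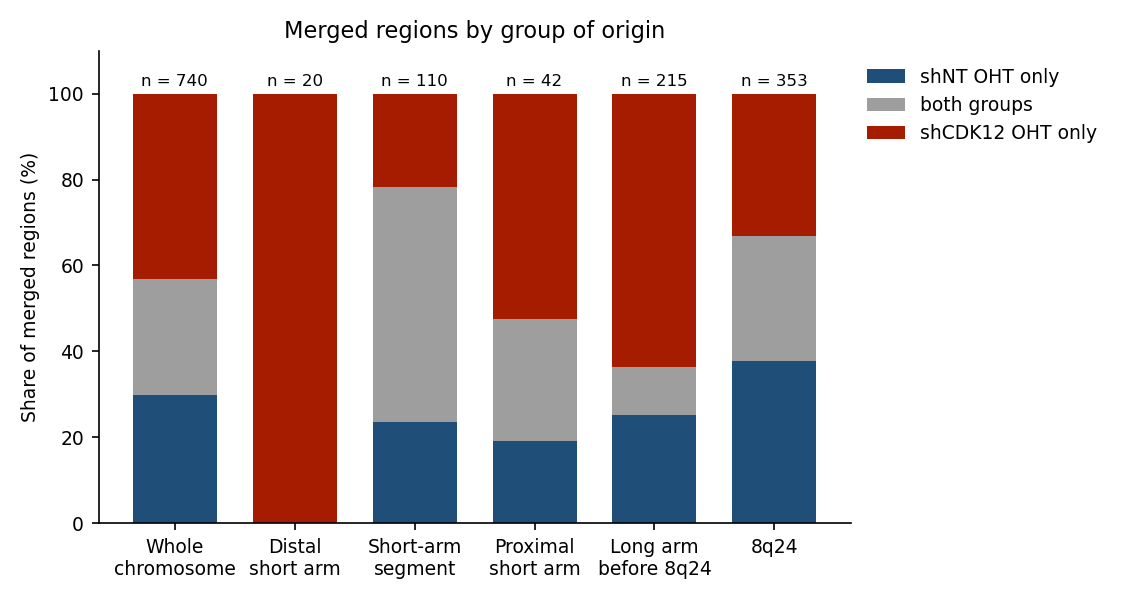
Share of merged regions in percent (vertical axis) that came from shNT OHT only, from both groups or from shCDK12 OHT only, for chromosome 8 and its 5 parts, with the number of merged regions above each bar. The part shared by both groups is 54.5% in the short-arm segment (25 to 30 Mb), 29.2% in 8q24 and 11.2% on the long arm before 8q24.

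The following are the longest of each class, with the length covered in shNT OHT replicates 1 and 2 and shCDK12 OHT replicates 1 and 2. In all 4 libraries these were chr8:29538001-29558000 (20 kb, with 14, 4, 12 and 4 kb), chr8:29786001-29806000 (20 kb, with 16, 6, 20 and 14 kb) and chr8:28844001-28862000 (18 kb, with 18, 12, 16 and 8 kb). All of them lie in the 25 to 30 Mb segment, and in each replicate 1 covered more than replicate 2 in both groups. In both shNT OHT libraries and no shCDK12 OHT library the longest were 3 regions of 6 kb, chr8:26924001-26930000, chr8:118228001-118234000 and chr8:140790001-140796000. In both shCDK12 OHT libraries and no shNT OHT library the longest was chr8:120214001-120226000 (12 kb), 8530 kb from MYC on the centromeric side, followed by chr8:28236001-28246000 and chr8:28348001-28358000 (10 kb each). Another region of 10 kb in this class, chr8:102212001-102222000, lies in the window at 100 to 105 Mb.

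Regions were mostly single bins. The share of 2 kb regions was 83.5 and 86.1% in shNT OHT, against 72.7 and 78.6% in shCDK12 OHT. Regions were on average 2.71 and 2.43 kb wide in shNT OHT, against 3.16 and 2.87 kb in shCDK12 OHT, each shCDK12 OHT value above each shNT OHT value (difference 0.441 kb, exact permutation p-value 0.333, the smallest possible). Its direction turned once gaps below or equal to 50 kb were closed (-4.54 kb). Regions at 25 to 30 Mb were the widest in shNT OHT replicate 1 and in both shCDK12 OHT libraries, with means of 3.61, 4 and 3.35 kb. In shNT OHT replicate 2 they measured 2.80 kb, behind 6 regions of 3 kb mean width between 30 and 45 Mb. Widths on chromosome 8 and on all other chromosomes differed by -0.153 to 0.0675 kb, chromosome 8 being the wider in 1 of 4 libraries.

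Regions lay close to each other. A neighbour within 100 kb was found for 77.8 and 62.7% of the regions in shNT OHT, against 64.7 and 57.3% in shCDK12 OHT, and the ranges overlapped (difference -9.25 percentage points, exact permutation p-value 0.667). It was -1.70 without shNT OHT replicate 1 and -16.8 without shNT OHT replicate 2. On all other chromosomes pooled the shares were 44.9, 36.4, 46.9 and 37.5%. A chromosome chosen for its many regions has close neighbours by that choice, so this gap is a description, with no test. Among the 7 chromosomes listed beside it in all libraries, the highest share was 61.2% (chromosome 4) in shNT OHT replicate 1 and 45% (chromosome 14) in replicate 2. Chromosome 14 reached 73.8% in shCDK12 OHT replicate 1, above chromosome 8, and 55.9% in replicate 2. When regions within 100 kb were joined, the fullest group was at 29532001 to 30342000 in replicate 1 of both groups, with 36 regions in shNT OHT, against 38 in shCDK12 OHT. It was at 29538001 to 30054000 with 16 regions in shNT OHT replicate 2, and at 28244001 to 28888000 with 21 regions in shCDK12 OHT replicate 2. In shNT OHT replicate 1 the next group was in 8q24, with 24 regions at 137794001 to 138776000, the place where shCDK12 OHT held fewer regions.

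By covered length, chromosome 8 lists of the same group overlapped more than lists of different groups, with no allowance for unequal list lengths. The Jaccard index, the shared length over the length covered by either list, was 0.221 between the shNT OHT replicates, 0.396 between the shCDK12 OHT replicates and 0.154 to 0.184 over the 4 pairs of different groups. Its ceiling, the shorter covered length over the longer, was 0.562 and 0.724 within groups and 0.381 to 0.936 between groups. The lowest ceiling and the lowest index (0.154) belonged to shNT OHT replicate 2 with shCDK12 OHT replicate 1. Given these ceilings, the index does not show that the shNT OHT replicates were more alike than that pair. The mean within groups exceeded that between groups by 0.139 (exact permutation p-value 0.333, the smallest that 3 splits into pairs allow), and by 0.0520 without shCDK12 OHT replicate 1 and 0.0523 without shCDK12 OHT replicate 2. On all other chromosomes the index was 0.154 and 0.446 within groups and 0.0474 to 0.0743 between groups.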

How the data were processed

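sBLISS libraries of U2OS MycER cells were analysed from the deposited region lists, 4 of the 8 libraries named in the labels. Per the labels the build is hg19, and 1 to 7 regions per list passed the end of chromosome 8 in hg38 (145138636 bp). The authors called regions per library, and the deposited values are starts and ends with no other column. Per the study's methods, the steps include removal of duplicates by molecular identifier, a filter on mapping quality, down-sampling, counting in 2 kb bins, use of a fixed threshold and merging of bins up to 2 kb apart. Whether these lists had the same threshold is not given in the sources used here. All coordinates fell on the edges of 2 kb bins.

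Regions were assigned to arms (boundary 45 Mb, inside the centromeric gap), segments and windows by their midpoint with Python 3.11.15, numpy 2.4.6, pandas 2.3.3 and scipy 1.17.1. Overlap, spacing and the exact tests were tested on simulated data. Exact permutation tests were two-sided. Planned tests of chromosome 8 against the other chromosomes were computed but are not reported, since the chromosome was chosen by its share of these lists. The named regions were the 3 longest of each class, named windows were the 3 highest or most changed, with ties in order of position, and the joined groups were the 3 fullest per library, of which the first is given. The 10 kb region at 100 to 105 Mb, the window at 140 to 145 Mb and most 1 Mb windows were named after their values were seen. Members, segments and lists were chosen with earlier results of these data known. Alternatives were merging, stricter width, other overlap rules, shifted windows, left-out libraries and replicate blocks. Intervals cover counting error only.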

Additional observations from a re-analysis of the deposited data

How the results depend on the processing

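Over 18 results and 158 alternatives, 100 kept their direction and stayed within the replicate spread, interval or 1.5 times the count, 54 moved further and 4 reversed; exact tests of 4 libraries cannot pass 0.05, so for them only direction was read. The alternatives without the 25 to 30 Mb segment and 8q24, the crossed numbers and the windows of wider regions were chosen after the data were seen. Causes were not tested. Depth is unknown and limits every comparison of numbers.

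Merging across 10 kb gave a change in 8q24 share of -17.1 percentage points and 57.5% of shCDK12 OHT replicate 1 touched by its replicate. Merging across 50 kb reversed the width difference (-4.54 kb) and the long-arm difference (-4.94 points), gave -2.74 points at 25 to 30 Mb and -26.7 in 8q24, touched shares of 37.8, 64.2 and 72.5% (shNT OHT replicate 1, shCDK12 OHT replicates 1 and 2) and a kept share of 50.9%. Regions of at least 4 kb gave log2 ratios of 1.15 (number) and 1.22 (length), -21.9 points at 25 to 30 Mb and -8.51 in 8q24, touched shares of 23.6, 45.2 and 72.2% for the same libraries, 20.7% of the shCDK12 OHT union touched by shNT OHT, and 0 windows by count and 3 by share that were higher in shNT OHT. Covered bins gave -10.2 points at 25 to 30 Mb, -13.6 in 8q24 and 1 window higher in shNT OHT. A distance of 10 kb raised the replicate shares to 41.1 and 63.6% in shNT OHT, against 62.3 and 74.2% in shCDK12 OHT, and the group shares to 55.3% (shNT OHT) and 45.04% (shCDK12 OHT). Coverage of 50% lowered them to 25.8% (shNT OHT replicate 1), 45.02% (shCDK12 OHT replicate 1) and 30.5% (shCDK12 OHT by shNT OHT). Regions of both replicates gave 49.1 and 24.8%. Shifted windows left 1 higher in shNT OHT, and 1 Mb windows gave 62 and 10 by count and 58 and 25 by share.

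Outside the 25 to 30 Mb segment and 8q24 the log2 ratios were 1.54 (number) and 1.86 (length), the long-arm difference -3.92 points, the replicate shares 18.6 and 30.2% in shNT OHT, against 62.9 and 72.1% in shCDK12 OHT, and the group shares 34.7 and 16.2%.

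Leaving out single libraries gave log2 ratios of number from 0.19 to 0.86, a long-arm difference from -0.0994 to 3.35 points, kept shares of shNT OHT from 30.7 to 58.9% and shares of shCDK12 OHT touched from 22.9 to 39.5%.

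Same-numbered replicates did not deviate together (r = -0.306 over 30 windows of chromosome 8, -0.00505 over 552 windows of all chromosomes), and the numbers were not taken as pairs. Under the replicate block the log2 ratios were 0.52 (number) and 0.74 (length). Touched shares were here means over pairs of single libraries, not shares of the union, and came to 28.4% of shCDK12 OHT regions. With crossed numbers as a block they were 39.3% (shNT OHT) and 27.0% (shCDK12 OHT). These means are not comparable with the shares of the unions, against which they were counted as moved.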
